A study of Mus musculus with 12 samples.

Results

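Cilp encodes the cartilage intermediate layer protein, a secreted glycoprotein, and it was the gene around which a set of 10 matrix genes of tendon and cartilage was assembled, out of 23923 genes with a value. The members are Cilp, its paralog Cilp2, Comp, Fmod, Tnmd, Thbs4, Chad, Scx, Prg4 and Kera, matched by symbol, and all 10 passed the filter on low values that left 12695 genes to be tested. Cilp was chosen by the size of its rise in this same contrast, so its values are given as a description with no test. The other 9 were named as tendon and cartilage genes, and the question is whether Cilp was higher alone or together with them.

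RNA from the tibialis anterior, a fast-twitch muscle of the lower leg, was sequenced in 12 mice of the mixed strain C57BL6/J;129S1/SvImJ aged 6 weeks, 6 controls and 6 conditional knockouts (CKO), with 1 library per mouse. SMYD1 is a methyltransferase of heart and skeletal muscle. Controls were Myf6 cre/+; Smyd1 flox/+ and CKOs were Myf6 cre/+; Smyd1 flox/-, and by the methods of the study both groups also carried a Rosa26 YFP/+ reporter. The Cre is expressed from the Myf6 locus, which is active in myofibers, so deletion was directed to fibers and not to the fibroblasts and tenocytes that share the tissue. Control fibers lose 1 Smyd1 allele and keep a wild-type one, and the null allele of the CKOs is present in all of their cells.

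Tendon is made of aligned collagen laid down by tenocytes, which are specified by the transcription factor scleraxis (Scx) and carry the membrane protein tenomodulin (Tnmd). Small leucine-rich proteoglycans such as fibromodulin bind collagen and set fibril width, and pentameric thrombospondins such as COMP bridge matrix molecules. Skeletal muscle holds such transcripts where fibers meet tendon and in the connective tissue sheaths, and CILP is best known from articular cartilage, where it lies in the middle zone of the tissue and can bind TGF-beta.

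Cilp with Cilp2 and Comp with Thbs4 encode related proteins, and the stretches in which their transcripts share the longest exact run are shown because the authors discarded reads that map to several places. The sequences are coding sequence from GENCODE mouse transcripts (GRCm38), 5′ to 3′, and capitals mark the shared run.
Cilp: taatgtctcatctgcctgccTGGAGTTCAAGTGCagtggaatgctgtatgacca
Cilp2: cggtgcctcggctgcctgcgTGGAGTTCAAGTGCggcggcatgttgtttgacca
Comp: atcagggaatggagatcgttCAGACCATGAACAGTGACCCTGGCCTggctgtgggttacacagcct
Thbs4: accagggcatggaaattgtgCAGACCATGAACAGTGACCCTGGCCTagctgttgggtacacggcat
The run shared by Cilp and Cilp2 was 14 bases long and began at base 3189 of the Cilp transcript and base 3326 of the Cilp2 transcript. That of Comp and Thbs4 was 26 bases long, and it was the longest exact run over all 45 pairs of members. Cilp lies on chromosome 9, Cilp2 and Comp on 8, Fmod and Prg4 on 1, Thbs4 on 13, Chad on 11, Scx on 15, Kera on 10 and Tnmd on X. Chad overlaps Acsf2, Scx overlaps Bop1 and Prg4 overlaps Tpr, each on the opposite strand, and because the strand setting of the counting is not given in the sources used here, the values of these 3 members are uncertain.

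Smyd1 itself had 37.4 ± 5.64 FPKM in controls and 34.1 ± 4.37 FPKM in CKOs (SD, n = 6 each), with overlapping groups (limma, adjusted P = 0.545). FPKM is a fragment count scaled by transcript length and by library size, so it allows levels to be compared between genes. A value over the whole gene can include transcripts without the deleted exons, so it does not check the labels, and the groups are those of the labels. At the level of protein, the paper could not detect SMYD1 in the tibialis anterior of CKOs by western blot. Relative depth, read from the steps between low FPKM, ran from 0.984 in CKO 5 to 1.77 in CKO 1 (control 1 set to 1.0). Control 1 stood apart among the controls. It was the highest control for Cilp and for 9 of the 9 other members, at 1.63 to 3.0 times the median of the other controls, and for 24 of 31 tested genes of separate tendon and cartilage lists, against 44.7% of all genes tested. Its summed FPKM of 9 fibroblast markers was 136, against 34.3 to 55.8 in the other controls. The summed FPKM of its whole library was also the highest, 156610 against 110124 to 133316 in the other controls. For fast fiber genes its sum was 39600, against 32400 at most in the other controls. The changes of the members are therefore also given without control 1.

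Cilp was higher in all 6 CKOs than in any control, and its difference was the largest of the members, which follows from how it was picked. Control values ran from 1.91 to 9.62 FPKM with a median of 2.12. CKO values ran from 18.9 to 69.7 FPKM with a median of 45.5. The groups did not overlap, but control 1 lay far above the other controls, at 4.62 times their median, and CKO 5 was the lowest CKO. Controls 2 to 6 lay within a narrow band of 2.12 ± 0.174 FPKM (SD, n = 5). The means were 3.37 ± 3.07 FPKM in controls and 44.0 ± 18.6 FPKM in CKOs (SD, n = 6 each), a ratio of 13.1, or 20.8 without control 1. On the log2(FPKM + 0.1) scale Cilp differed by 3.84 with a standard error of 0.38, which placed it second among 12695 genes. Just inside and just outside the gap between the groups lay CKO 5 at 18.9 FPKM and control 1 at 9.62 FPKM, a ratio of 1.96, and the ratio of CKO 5 to the next control was 7.93. CKOs also varied among themselves, with the highest 3.69 times the lowest.

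**Figure D1:**
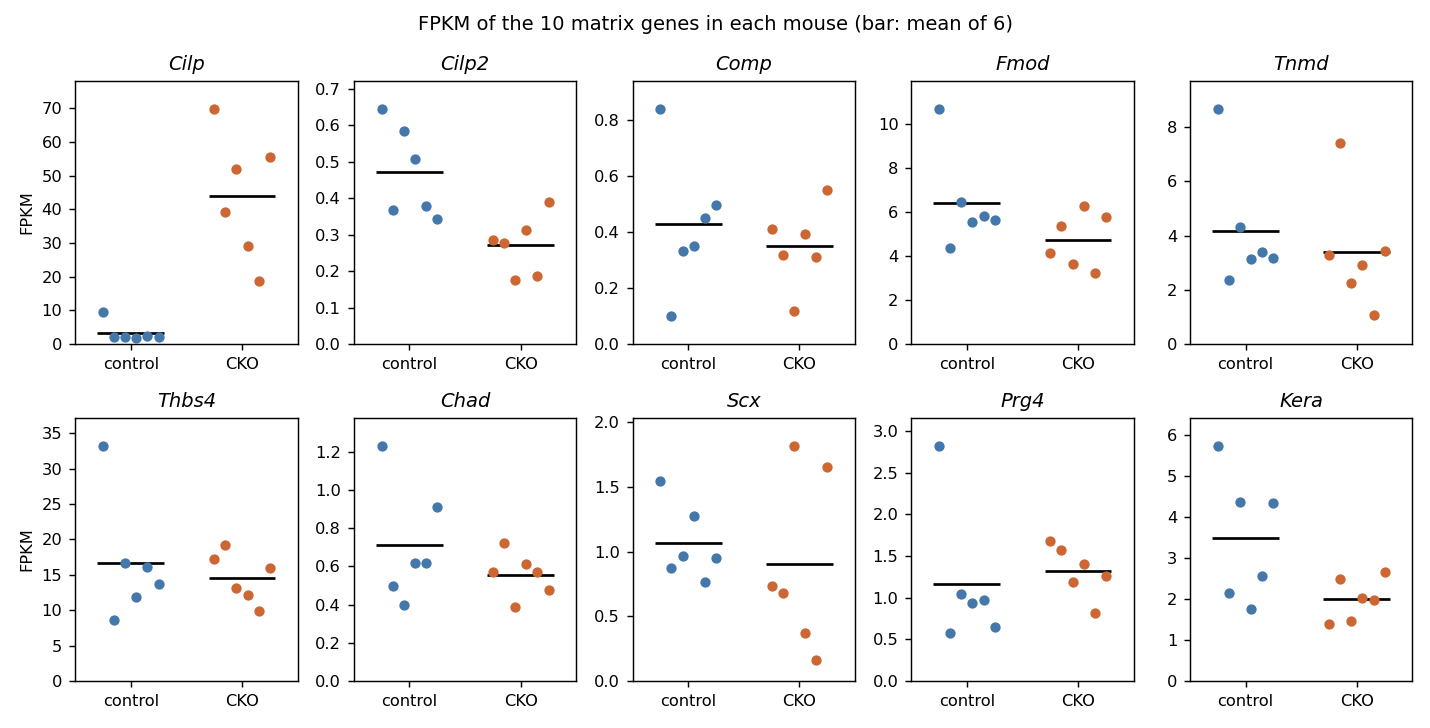
FPKM (vertical axis, linear and starting at 0, a separate scale for each gene) of the 10 members in each of the 6 controls (blue) and 6 CKOs (orange), 1 point per mouse in replicate order, with the mean as a bar. Cilp separates the groups without overlap and the other 9 do not, with CKOs from 18.9 to 69.7 and controls from 1.91 to 9.62, and control 1 is the highest control in every panel.

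None of the other 9 members was called higher in CKOs. In the plot of FPKM by mouse, 0 of the 9 had every CKO above every control, against 2.23% of all genes tested, and 0 of 9 had every CKO below every control, against 0.189%. By limma 0 of 9 were higher and 0 of 9 lower in CKOs at an adjusted P below 0.05, where 2.02% of all genes tested were higher and 0.268% lower. With shares this low, 0 of 9 does not set the members apart from other genes. At an unadjusted P below 0.05, 0 of 9 were higher, against 18.1% of all genes, and 2 of 9 were lower, Cilp2 and Kera, against 1.76% of all genes. The log2 fold change was below 0 for 8 of the 9, with a median of -0.38, whereas the median over all genes was 0.18 and 77.9% of all genes were above 0. The 95% intervals put an upper limit on a rise: the highest upper bound over the 9 members was 1.93-fold, that of Prg4, and 2.04-fold, again Prg4, without control 1. With 1 library per mouse, P values measure the spread among these mice. In whole muscle, fewer cells of a type and less RNA per cell cannot be told apart.

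Cilp2, the closest relative of Cilp, had a difference of the opposite sign. Controls ran from 0.344 to 0.644 FPKM with a median of 0.444, and CKOs from 0.177 to 0.390 FPKM with a median of 0.281. Of the 6 CKOs, 5 lay below every control, and only CKO 6 reached into the range of the controls. The log2 fold change was -0.62 with a standard error of 0.21 (limma, adjusted P = 0.125), a ratio of 0.65 with a 95% interval of 0.479 to 0.882. After quantile normalization Cilp2 passed the threshold as lower (log2 fold change -0.83, limma adjusted P = 0.0371). Without control 1 the ratio was 0.688 (0.503 to 0.942, limma adjusted P = 0.113). In controls the mean FPKM of Cilp was 3.37 and that of Cilp2 was 0.471, and in CKOs they were 44.0 and 0.271.

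The thrombospondins of the set were not called in either direction. Thbs4, which lies at the myotendinous junction and in tendon, was the most abundant member in controls and ran from 8.60 to 33.2 FPKM with a median of 14.9. In CKOs Thbs4 ran from 9.84 to 19.2 FPKM with a median of 14.6, so the CKOs lay wholly within the control range. The ratio for Thbs4 was 0.934 with a 95% interval of 0.641 to 1.36 (limma, adjusted P = 0.854), and its sign turned without control 1 (log2 fold change 0.12). Comp, also called thrombospondin 5 and the classic cartilage and tendon member of the family, was found at a low level. Its FPKM ran from 0.102 to 0.839 in controls (median 0.401) and from 0.117 to 0.549 in CKOs (median 0.356), again with the CKOs inside the control range. The ratio for Comp was 0.892 with a 95% interval of 0.545 to 1.46 (limma, adjusted P = 0.805), and its sign also turned without control 1 (log2 fold change 0.03).

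The leucine-rich repeat proteins Fmod, Kera and Chad had lower means in CKOs, and none passed the adjusted threshold. Fmod, the fibromodulin gene, ran from 4.35 to 10.7 FPKM in controls (median 5.73) and from 3.22 to 6.28 in CKOs (median 4.74). Kera encodes keratocan, a keratan sulfate proteoglycan first known from cornea and present in tendon, and ran from 1.75 to 5.74 FPKM in controls (median 3.46) and from 1.40 to 2.65 in CKOs (median 2.001). For Fmod 3 CKOs and for Kera 2 CKOs lay below every control, and the rest overlapped. The ratio was 0.75 for Fmod (95% interval 0.555 to 1.02, limma adjusted P = 0.273) and 0.62 for Kera (0.42 to 0.916, limma adjusted P = 0.168). Chad, which encodes the cell-binding matrix protein chondroadherin, ran from 0.399 to 1.23 FPKM in controls (median 0.618) and from 0.388 to 0.724 in CKOs (median 0.569). The ratio for Chad was 0.843 (0.6 to 1.18, limma adjusted P = 0.558), and the groups overlapped almost wholly. Without control 1 the ratio was 0.836 for Fmod (0.649 to 1.08), 0.695 for Kera (0.485 to 0.998) and 0.94 for Chad (0.694 to 1.27), and none passed the adjusted threshold in limma.

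The markers of tenocyte identity did not pass the test either. Tnmd ran from 2.36 to 8.66 FPKM in controls (median 3.29) and from 1.06 to 7.42 in CKOs (median 3.11). The highest mouse of each group, control 1 and CKO 2, stood well clear of the rest, and CKO 3 and CKO 5 lay below every control while the other 3 CKOs lay inside the control range. The ratio for Tnmd was 0.771 (95% interval 0.448 to 1.33, limma adjusted P = 0.581). Its log2 fold change of -0.38 moved to -0.14 without control 1, -0.10 without CKO 5 and -0.64 without CKO 2. Scx ran from 0.768 to 1.55 FPKM in controls (median 0.960) and from 0.166 to 1.82 in CKOs (median 0.707). The CKOs were split, with CKO 3 and CKO 6 above every control and the other 4 below every control. The ratio for Scx was 0.709 (95% interval 0.394 to 1.28, limma adjusted P = 0.490). Its log2 fold change was -0.50, or -0.39 without control 1, -0.18 without CKO 5 and -0.75 without CKO 3.

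Prg4, which encodes the boundary lubricant lubricin of joint and tendon surfaces, was the sole member other than Cilp with a positive log2 fold change. Controls ran from 0.580 to 2.82 FPKM (median 0.956) and CKOs from 0.810 to 1.68 FPKM (median 1.34). All CKOs lay below control 1, and 5 of the 6 lay above the other 5 controls. The log2 fold change was 0.32 with a standard error of 0.29 (limma, adjusted P = 0.552). Without control 1 it was 0.60 and passed the unadjusted threshold (limma, adjusted P = 0.0726). In that fit 27.2% of all genes were higher at an unadjusted P below 0.05, and Prg4 was the 1 of 9 members that was.

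**Figure D2:**
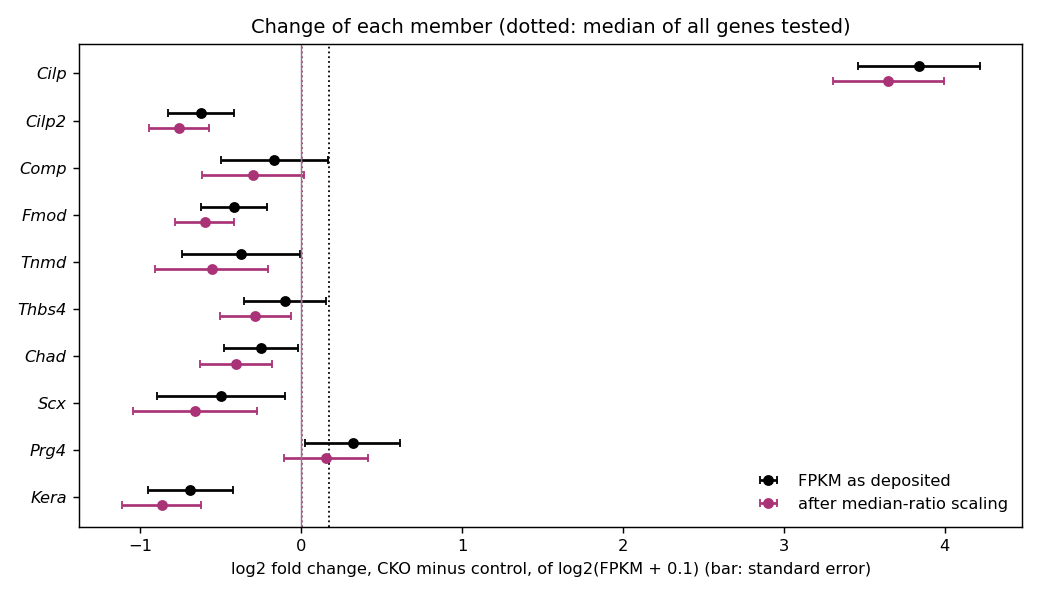
Log2 fold change of log2(FPKM + 0.1), CKO minus control, for each member (horizontal axis), with the standard error as a bar, from FPKM as deposited (black) and after median-ratio scaling (purple); dotted lines give the median of all genes tested, 0.18 and 0.01. Cilp sits at 3.84, while 8 of the other 9 sit below 0 and Prg4 at 0.32.

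The size of the members' changes depends in part on the scale, as the plot of changes shows, and no sign turned with the scaling. Median-ratio scaling, which divides each library by its median ratio to the mean library, moved the median of all genes from 0.18 to 0.01 and that of the other 9 members from -0.38 to -0.56. After this scaling 3 of 9 members, Cilp2, Fmod and Kera, were lower at an unadjusted P below 0.05, against 7.44% of all genes, and 0 of 9 at an adjusted P. Without control 1 the median of the 9 was -0.14, with 6 of 9 below 0. Cilp stayed between 3.44 and 4.22 on the log2 scale over all 20 alternatives run.

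The order of the members by level changed through Cilp. In controls the order of mean FPKM was Thbs4, Fmod, Tnmd, Kera, Cilp, Prg4, Scx, Chad, Cilp2 and Comp. Thbs4 exceeded Fmod, Fmod exceeded Tnmd, Cilp exceeded Prg4 and Scx exceeded Chad in 6 of 6 controls. Kera exceeded Cilp, Prg4 exceeded Scx and Cilp2 exceeded Comp in 3 of 6 controls, so these neighbours did not differ beyond their spread. In CKOs Cilp came first, above Thbs4 in 6 of 6 mice, and the next 4 places kept the order Thbs4, Fmod, Tnmd and Kera. Cilp made up 5.51 to 12.8% of the summed FPKM of the 10 members in controls (median 6.98%) and 50.7 to 70.1% in CKOs (median 57.8%). Over the other 9 members the summed FPKM ran from 19.9 to 65.3 in controls (median 30.7) and from 18.1 to 38.0 in CKOs (median 28.1), so these ranges overlapped.

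**Figure D3:**
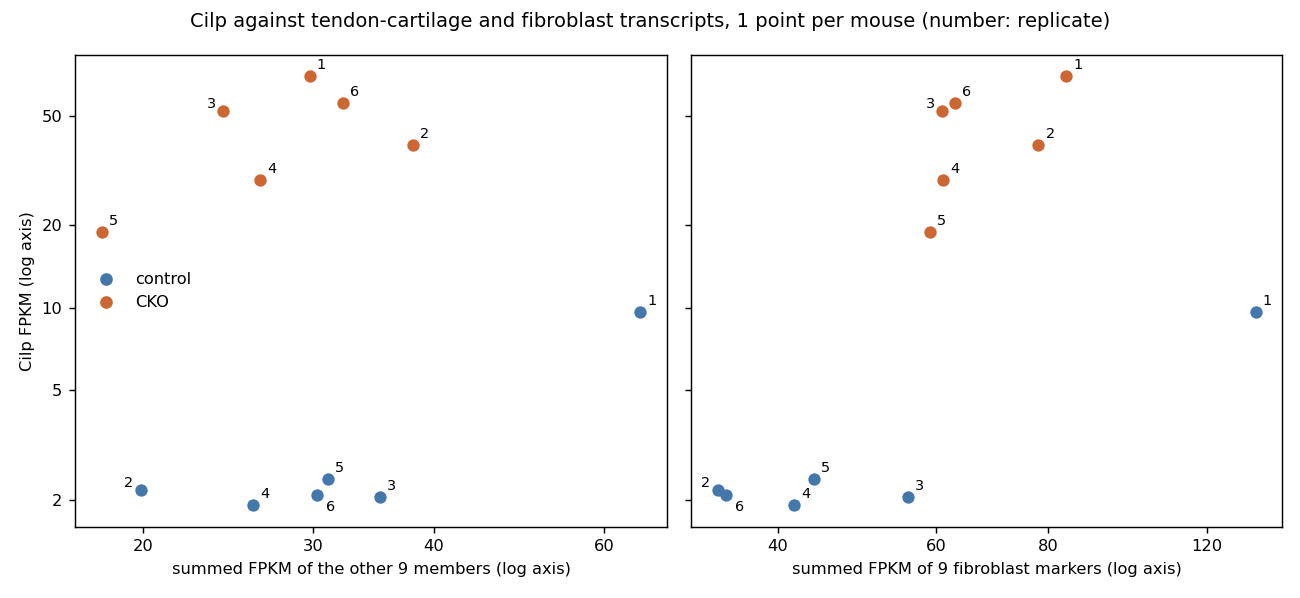
Cilp FPKM (vertical log axis) against the summed FPKM of the other 9 members (left, log axis) and of 9 fibroblast markers (right, log axis), 1 numbered point per mouse, controls blue and CKOs orange. Control 1 is farthest right in both panels, at 65.3 and 136, with a Cilp of 9.62.

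Cilp was also high relative to the fibroblast transcripts of the libraries. The summed FPKM of the 9 fibroblast markers ran from 59.1 to 83.7 in CKOs, above all controls except control 1, and 0 of the 9 markers passed the adjusted threshold. The ratio of Cilp to this sum was 0.0367 to 0.0706 in controls (median 0.0569) and 0.32 to 0.882 in CKOs (median 0.667), without overlap. Control 1, with the highest fibroblast sum of the 12 mice, had a ratio of 0.0706, the highest of the controls. This comparison uses the contrast that chose Cilp and is a description. The part of fibroblast content in the level of Cilp was not tested.

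Within groups, Cilp was compared with each of the other 9 members across the 6 mice, which gave 18 pairs. By an exact permutation test of Pearson's r, 0 of the 18 passed an adjusted P of 0.05 and 1 passed the unadjusted threshold. That pair was Cilp with Scx in the CKOs, with r = 0.828 (two-sided exact permutation P = 0.0389, adjusted P = 0.257) and Spearman's rho = 0.771 (exact permutation P = 0.103, adjusted P = 0.755). Without CKO 1 and CKO 5, the mice farthest from the median of Cilp, r for Scx was 0.983 over 4 mice. The same step in controls, without control 1 and control 5, moved r for Scx from 0.693 to -0.984 over 4 mice. With 4 mice and opposite signs, these values do not settle a relation of Cilp with Scx. In controls r with Cilp was positive for 9 of 9 members, from 0.585 for Cilp2 to 0.904 for Prg4, but without control 1 and control 5 it was positive for 1 of 9, Kera, so these relations rest on those mice. In CKOs 7 of 9 were positive, and 2 of 9 without CKO 1 and CKO 5.

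Over the 12 mice the genes most like Cilp by Pearson's r of log2(FPKM + 0.1) were not members. They were Nucb1 (r = 0.973), Itgav (0.972), Maged2 (0.97), Slc44a1 (0.967) and App (0.964). Itgav encodes integrin alpha-V and App the amyloid precursor protein, whose mean FPKM was 15.9 in controls and 34.9 in CKOs. Maged2 had 1.82 and 8.83 FPKM. By the mean of the r within controls and within CKOs the closest were Atxn10, Itih5, Sgpl1, Bgn and Rplp2-ps1, and of these Bgn encodes the matrix proteoglycan biglycan (r = 0.951 in controls and 0.963 in CKOs). Among all tested genes Prg4 took place 3525 over the 12 mice, the best of the members, and Cilp2 place 12458, the last of the members. These values include the difference between the groups and share its libraries, so they are a description.

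Genes of tendon and cartilage outside the set were counted in the same fit. Cilp was picked for the size of its rise, so a comparison of sizes with Cilp decides nothing. A list of 24 further tendon matrix genes and regulators was tested in full. At an adjusted P below 0.05, 1 rose and 0 fell, against 2.02% and 0.268% of all genes. At an unadjusted P 6 were higher and 2 lower, against 18.1% and 1.76% of all genes. The gene that rose was Tppp3, a marker of the tendon sheath, from 5.20 to 10.9 FPKM (log2 fold change 1.05, standard error 0.25, limma adjusted P = 0.0430), the highest log2 fold change of the tendon and cartilage lists. In 10 of the 12 fits that left out 1 mouse, Tppp3 did not pass the threshold, with an adjusted P of 0.108 at most, and it passed without control 1 or CKO 2. Both lower genes encode transcription factors active in tendon. Mkx (mohawk) had 0.451 FPKM in controls and 0.184 in CKOs, with 5 CKOs below every control (limma adjusted P = 0.109). Egr1, also an early response gene in many cells, had 3.39 and 0.499 FPKM (limma adjusted P = 0.0777, or 0.0102 without control 1), with controls spread from 0.452 to 10.1. The median log2 fold change of this list was 0.40, against 0.18 over all genes.

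The count of the tendon list changed when control 1 was left out. Without that mouse 13 of the 24 tendon list genes were higher at an adjusted P (limma), against 8.56% of all genes, with a median log2 fold change of 0.65. In the same fit 0 of the 9 other members were higher at an adjusted P, and 5 of the 9 fibroblast markers were. Control 1 was set apart for its high values of these same transcripts, so leaving it out lowers their control means. The share over all genes is then no fair baseline. These counts therefore do not decide whether fibroblast and tendon list transcripts moved with the group. The part of fibroblast content in the level of any member was not tested. After median-ratio scaling of all 12 mice 0 of the 24 tendon list genes were higher at an adjusted P, against 97 of 12695 genes tested. With a share this low, 0 of 24 does not set the list apart from other genes. At an unadjusted P 4 of the 24 were higher (limma), and the share of all genes at that threshold is not given here.

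Cartilage genes were mostly near or at 0. Of 19 cartilage genes 7 could be tested, and 0 were called in either direction at an adjusted or an unadjusted P (limma, median log2 fold change 0.03). Matn1, Ucma, 3110079O15Rik and Crtac1 were listed at 0 in all 12 mice. Acan, the core protein of the large cartilage proteoglycan, did not exceed 0.0732 FPKM, Hapln1, its link protein, did not exceed 0.0592 and Col2a1, the main cartilage collagen, did not exceed 0.270, whereas Sox9 ran from 0.330 to 0.643. In CKOs, where Cilp was at 18.9 FPKM or more in every mouse, the highest values of these markers were 0.0732 FPKM for Acan, 0.0592 for Hapln1, 0.156 for Col2a1, 0.364 for Col9a1 and 0.643 for Sox9, with Matn1 at 0. Acan, too low to be tested, had 4 CKOs above every control. Of 7 bone genes 3 were tested and 0 were called at an adjusted or an unadjusted P in limma.

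**Figure D4:**
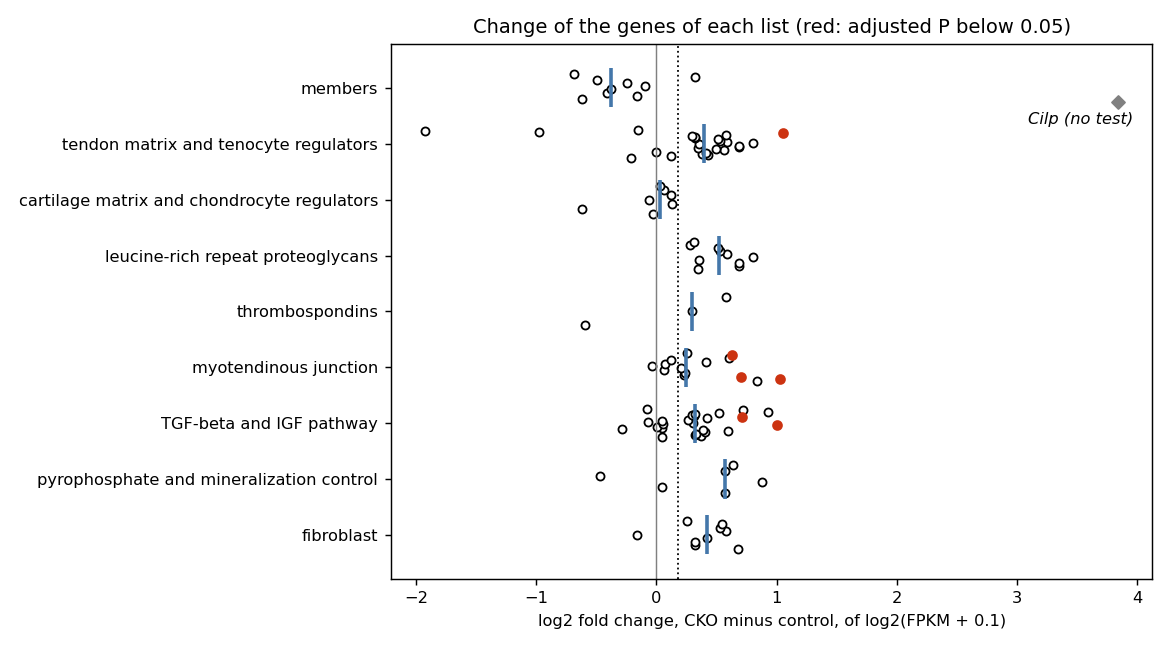
Log2 fold change of log2(FPKM + 0.1), CKO minus control (horizontal axis), of each tested gene of the members and of 8 further lists; red points have a limma adjusted P below 0.05, blue bars are list medians (without Cilp for the members), and the dotted line is the median of all genes, 0.18. Cilp (grey, picked for its rise and not tested) lies at 3.84. The highest value of the tendon and cartilage lists is 1.05, that of Tppp3.

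Families and pathways linked to the members differed in their counts, as the plot of lists shows. Over all genes tested 2.02% were higher at an adjusted P, or 8.56% without control 1, and 18.1% at an unadjusted P. A positive log2 fold change was found for 77.9% of all genes, with a median of 0.18. Of 14 leucine-rich repeat proteoglycans other than the members 10 were tested, and 0 rose at an adjusted P, although 10 of 10 had a positive log2 fold change and 5 were higher at an unadjusted P (median 0.52). Without control 1, 7 of the 10 were higher at an adjusted P, and 8 of the 14 genes are also in the tendon list. Bgn had 11.7 and 17.9 FPKM (limma adjusted P = 0.144, or 0.0073 without control 1), whereas the means of Fmod and Kera were lower in CKOs. Of the 3 other thrombospondins none was called at an adjusted P by limma, with 0 higher and 1 lower at an unadjusted P, Thbs1 (log2 fold change -0.59, limma adjusted P = 0.116, or 0.037 without control 1). Without control 1, 1 of the 3 was higher and 1 lower at an adjusted P, and Thbs2 and Thbs3 were higher at an unadjusted P (limma). Of 14 genes of the myotendinous junction, where force passes from fiber to tendon, 3 rose: Itgb1 from 37.1 to 60.01 FPKM, Itga7 from 4.58 to 9.38 FPKM and Dmd, the dystrophin gene, by 0.63 on the log2 scale (limma, adjusted P = 0.0133, 0.0149 and 0.0188). Itgb1 and Itga7 encode the chains of the laminin receptor of fibers, and for both every CKO was above every control and the call held with any 1 mouse left out. The gap was narrow. The lowest CKO and control 1, the highest control, had 51.42 and 51.41 FPKM for Itgb1 and 6.877 and 6.811 FPKM for Itga7. Dmd passed in 8 of 12 such fits, with an adjusted P of 0.0565 at most. Without control 1, 6 of the 14 junction genes were higher. Of 25 tested genes of the TGF-beta and IGF pathways, whose ligands CILP can bind, 2 rose, Igfbp3 (log2 fold change 0.72, limma adjusted P = 0.0215) and Ltbp1 (1.005, limma adjusted P = 0.0216), and 10 were higher at an unadjusted P. Without control 1, 8 of the 25 were higher at an adjusted P. Igfbp3 did not pass in 3 of the 12 fits that left out 1 mouse (control 4, CKO 1 or CKO 3) and Ltbp1 in 5 of 12 (control 2, 5 or 6, CKO 1 or CKO 6). Of 6 tested genes of pyrophosphate and mineral control 0 were called by limma at an adjusted P and 3 were higher at an unadjusted P, Slc20a2, Enpp1 and Mgp, and without control 1 these 3 were higher at an adjusted P.

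Markers of the other cell types of muscle were counted in the same fit. Over all genes tested 2.02% were higher at an adjusted P, or 8.56% without control 1, and 18.1% at an unadjusted P. At an adjusted P limma called 0 of 7 endothelial, 0 of 7 macrophage, 0 of 7 Schwann, 0 of 3 adipocyte, 0 of 6 smooth muscle and pericyte and 0 of 4 satellite cell markers. At an unadjusted P the higher counts were 0 endothelial, 0 macrophage, 2 Schwann, 1 adipocyte, 1 smooth muscle and pericyte and 4 satellite cell markers, and none was lower. Of 9 fast fiber genes 1 was higher and 0 were lower at an adjusted P, with a median log2 fold change of -0.21. The 1 was Myh1, the type 2X myosin heavy chain. At an unadjusted P Myh1 and Myh4 were higher and Acta1 was lower. Without control 1 the adjusted calls were 1 macrophage marker, 2 satellite cell markers and 2 fast fiber genes, all higher in CKOs, and 0 in the endothelial, Schwann, adipocyte and smooth muscle lists. At an unadjusted P in that fit 6 of 7 macrophage and 3 of 4 satellite cell markers were higher, against 27.2% of all genes. So were 1 Schwann and 1 adipocyte marker and 2 fast fiber genes. Control 1 had the highest macrophage sum of the controls, 26.9 FPKM against 10.9 at most in the others.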

How the data were processed

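Per the labels and the methods of the study, the authors depleted ribosomal RNA (ScriptSeq Complete Gold), trimmed adapters, aligned reads with TopHat2 2.0.10 to the mouse genome build mm9 allowing at most 2 mismatches, discarded reads mapping to several places, and deposited 1 FPKM per gene symbol and mouse from Cufflinks 2.1.1 (versions and build from the submitters' processing notes). Counts were not used here, so the count test of the study was not repeated, depth in reads is unknown, and no counting interval is given. Of 23950 entries per mouse, 27 were dropped because a date stood in place of the symbol.

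limma 3.58.1 (R 4.3.3) with an intensity trend was run on log2(FPKM + 0.1) over 12695 genes, those reaching 0.1 FPKM in 6 or more of the 12 mice, with Benjamini-Hochberg adjustment over all of them. Fold changes on this scale understate changes of genes with low values. Adjusted P values are limma's. Pairs were tested by exact permutation (720 orders). The fit was tested on simulated data. The genes named are the members, the 3 with the smallest P in each list (named here only where a result is described), the 5 nearest to Cilp by each correlation, Smyd1, and genes listed at 0; the remaining cartilage markers Acan, Hapln1, Col2a1, Matn1 and Sox9 are the defining chondrocyte markers. The members and lists were chosen with earlier results of these data known. Chromosomes and sequences were looked up by symbol in GENCODE mouse release 21, built on GRCm38, and no coordinates are given because the builds differ. The alternatives were no filter or one at 1 FPKM, a pseudocount of 1, quantile normalization, median-ratio scaling, no intensity trend, sample weights, the replicate number as a block, each mouse left out and, for pairs, Spearman's rho and the mice farthest from the median left out.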

Additional observations from a re-analysis of the deposited data

Results flagged for a closer look

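In 6 of 20 combinations of a member and a group, 1 mouse lay far from the other 5 of its group by Dixon's test. Its rate of about 1 in 20 by chance holds for independent normal values. These are FPKM of genes that share the same libraries, so the count does not measure a departure from chance. Control 1 was that mouse in 5 of the 6 combinations. Cilp was 9.62 FPKM in control 1, where the next control had 2.38. Prg4 was 2.82 FPKM there against 1.05, Tnmd 8.66 against 4.32, Thbs4 33.2 against 16.7 and Fmod 10.6 against 6.44. The same library held the highest sums of fibroblast and tendon transcripts, and the highest summed FPKM of the whole library, among all 12 mice. The part of these in the member values was not tested. In CKOs the sole case was Tnmd in CKO 2, with 7.42 FPKM against 3.43 in the next CKO, while Cilp in CKO 2 was 39.2 FPKM, inside the range of its group.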

How the results depend on the processing

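Over 20 alternatives the members other than Cilp gave 0 genes higher at an adjusted P. With quantile normalization 1 was lower, Cilp2 (log2 fold change -0.83). At an unadjusted P 1 member was higher with sample weights and 0 to 1 with each mouse left out. The 1 with a mouse left out was Prg4, without control 1. The 2 members lower at an unadjusted P became 1 at a filter of 1 FPKM, which left 5 of the 9 tested. They became 3 with median-ratio scaling, with quantile normalization, and without control 2, CKO 4 or CKO 6. Comp reversed without control 1 (0.0285) and without CKO 3 (0.0295), with -0.415 to 0.0295 over mice left out. Thbs4 reversed with sample weights (0.0655), without control 1 (0.12) and without CKO 5 (0.01), over a range of -0.26 to 0.12. The 257 genes higher at an adjusted P became 170 with no filter, 97 with median-ratio scaling, 101 with quantile normalization and 1400 with sample weights, and 88 (without CKO 1) to 1075 (without control 1) with mice left out. The 34 lower became 90, 68 and 115 with those last 3 settings in the same order, and 18 to 69 with mice left out. Of the 7 list genes higher, 4 genes, Itga7, Itgb1, Ltbp1 and Myh1, were also called with median-ratio scaling, and Tppp3, Dmd and Igfbp3 were not, whereas 34 were called with sample weights and 3 to 40 with mice left out. List genes lower numbered 0, but 1 with quantile normalization, 2 with sample weights and 0 to 2 with mice left out. The cause was not tested. The replicate number as a block gave 272 higher and 40 lower genes and no call among the other 9 members. The labels do not say whether the numbers pair the mice. Same-numbered mice had correlations of -0.09 to 0.16 in their deviations from the group means, which does not settle it. Without a count table, counting error cannot be separated from the spread between mice for members below 1 FPKM.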
